A study of Homo sapiens with 6 samples.

Results

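The major histone gene cluster of the human genome lies at 6p22, on the short arm of chromosome 6, and was taken here as the hg19 stretch from 25.7 to 27.9 Mb. It was divided by position into a first histone subcluster (25.7 to 26.3 Mb), a middle with the butyrophilin genes (26.3 to 27.05 Mb) and a second histone subcluster (27.05 to 27.9 Mb), with a flank of 1 Mb on each side. The stretch held 110 bins of 20 kb, of 140474 bins with a value in both cell lines. Its limits were set by position and not from a measured value, though earlier results of these data were known. The bins fell into segments of 30, 37 and 43, and each flank held 50.

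The measurements come from Hi-C, in which cross-linked chromatin is cut, DNA ends that lie close together are ligated, and the joined fragments are sequenced. The 2 groups were HCT116, an established cell line from a human colorectal cancer and labelled as wild type, and DKO1, the same line with knockout of DNMT1, the maintenance DNA methyltransferase, and DNMT3B, a de novo DNA methyltransferase. Both groups share the HCT116 background, neither was treated, and DKO1 is a derived line, so any other change it acquired cannot be told apart from the knockout. The 3 libraries of each line were represented by 1 compartment track and 1 list of domains, so values carry no replicate error, the lines could not be tested against each other, and every difference is between these maps only. Contact counts, read depth and DNA methylation were not analysed here, and the loss of the methyltransferases cannot be checked in these files.

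Replication-dependent histone genes supply the core histones H2A, H2B, H3 and H4 and the linker histone H1 while DNA is copied, and their messages end in a stem-loop in place of a poly(A) tail. Their clusters gather at the histone locus body, a nuclear body that concentrates the factors for histone transcription and message processing. In Hi-C, the compartment score PC1 sorts chromatin into compartment A, which is open and rich in genes, and compartment B, which is closed and poor in them. Topologically associating domains are stretches that contact themselves more than their surroundings.

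In RefSeq order (GRCh38.p14, used for names and order only, since the tracks are on hg19), the cluster holds 55 protein-coding histone genes in groups of 34 and 21 on either side of the butyrophilin genes. The first group runs from H2AC1 to H4C8 and has 5 H1, 5 H2A, 9 H2B, 7 H3 and 8 H4 genes. The second group runs from H2BC11 to H2BC17 and has 1 H1, 7 H2A, 6 H2B, 3 H3 and 4 H4 genes. A further 11 histone pseudogenes lie among them. The first group also encloses 5 other coding genes, among them SLC17A4, SLC17A3 and SLC17A2, anion transporters, HFE, the regulator of iron uptake altered in haemochromatosis, and TRIM38, a ubiquitin ligase of innate immune signalling. Between the groups lie 9 coding genes, of which 6 encode butyrophilins, membrane proteins of the immunoglobulin superfamily. BTN2A1 and BTN3A1 are known for the recognition of phosphoantigens by gamma-delta T cells, and BTN1A1 for the secretion of milk fat. The other coding genes of this interval are HMGN4, a nucleosome-binding protein, ABT1, an activator of basal transcription, and ZNF322, a zinc-finger protein. The second group is itself parted by PRSS16, a thymus serine protease, POM121L2, LOC105375107, ZNF391 and ZNF184, with 5 histone genes before them and 16 after. The tRNA genes of the region are unevenly placed, with 0 within the first histone group, 13 from there to the last butyrophilin gene, 34 from that gene to the second group and 51 within the second group.

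The promoters below show motifs known from histone promoters in H2B and H4 genes of both subclusters, with a butyrophilin gene from between them. They were picked for the motifs: in each group, the first H2B gene in order with the octamer and the first H4 gene with the H4 element, beside the first butyrophilin gene. They do not stand for all histone genes of the cluster. Each is the 100 bases before the start of the gene, from RefSeq on GRCh38.p14, read 5′ to 3′ on the strand of the gene, and capitals mark matches to 4 motifs. The motifs were the octamer ATTTGCAT of H2B promoters, the H4 promoter element GGTCCG, the CCAAT box CCAAT and the TATA box TATAAA, each searched on both strands.
H2BC8 (chr6:26216689-26216788, minus strand): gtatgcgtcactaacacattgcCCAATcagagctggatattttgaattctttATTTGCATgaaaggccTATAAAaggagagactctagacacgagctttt
H4C2 (chr6:26027284-26027383, minus strand): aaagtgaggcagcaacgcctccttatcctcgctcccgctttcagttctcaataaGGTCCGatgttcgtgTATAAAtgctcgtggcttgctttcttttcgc
H2BC11 (chr6:27132796-27132895, minus strand): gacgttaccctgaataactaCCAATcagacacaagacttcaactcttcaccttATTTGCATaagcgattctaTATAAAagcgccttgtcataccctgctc
H4C9 (chr6:27139182-27139281, plus strand): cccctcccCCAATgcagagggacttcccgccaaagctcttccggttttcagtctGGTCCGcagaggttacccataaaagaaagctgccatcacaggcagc
BTN3A2 (chr6:26365098-26365197, plus strand): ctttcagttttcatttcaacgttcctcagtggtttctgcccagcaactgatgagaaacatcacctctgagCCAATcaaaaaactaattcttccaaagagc

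H2BC8 and H2BC11, H2B genes of the first and the second group, both held the octamer, a CCAAT box and a TATA box. H4C2 and H4C9, H4 genes of the first and the second group, both held the H4 element. BTN3A2 held a CCAAT box alone. Of the 55 histone genes, 50 had a promoter in the table. The octamer was found in 7 of 50 histone genes and the H4 element in 10 of 50. Within their families, the octamer was in 6 of 15 H2B genes (40%), 3 of 9 in the first group and 3 of 6 in the second, against 0.89% of all 27305 genes of the table. The H4 element was found in 9 of 10 H4 genes (90%), 5 of 6 in the first group and 4 of 4 in the second, against 5.00% of all genes. A CCAAT box was found in 42 of 50 histone genes (84%) and a TATA box in 28 of 50 (56%), against 21.6% and 6.23% of all genes. The CCAAT box was less common in H4 genes, at 3 of 10 (30%). It was found in 14 of 15 H2B genes and in every H1, H2A and H3 gene of the cluster with a promoter in the table. Of the 9 coding genes between the groups, 7 were in the table, of which 5 held a CCAAT box and 0 held any of the other motifs. In 1 histone promoter, matches of different motifs overlapped. A match is a description of the letters only. The deposited scores are per 20 kb, and hg19 positions of the genes were not used here, so no score is given for a single gene.

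Most of the histone stretch lay in compartment A in both lines. PC1 was deposited in units of the SD over each chromosome, so 0 is the chromosome mean, and a bin above 0 was called A and a bin below 0 called B. Of the 110 bins, 97 (88.2%) were A in HCT116 and 95 (86.4%) in DKO1. Over all autosomal bins the shares were 53.7% and 49.2%. Averaged over the stretch, PC1 was 0.67 (SD over bins 0.56) in the HCT116 track and 0.64 (SD 0.54) in that of DKO1. The mean in HCT116 was above those of 77.8% of the 1176 non-overlapping autosomal windows of the same length, and the mean in DKO1 above those of 76.7%. Ranks of this kind are descriptions and set scores of separately scaled chromosomes side by side. The stretch was therefore on the A side of the genome and well inside the range of other A regions. Among the windows with a positive mean in HCT116, it ranked above 58.6% in HCT116 and 57.1% in DKO1.

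**Figure D1:**
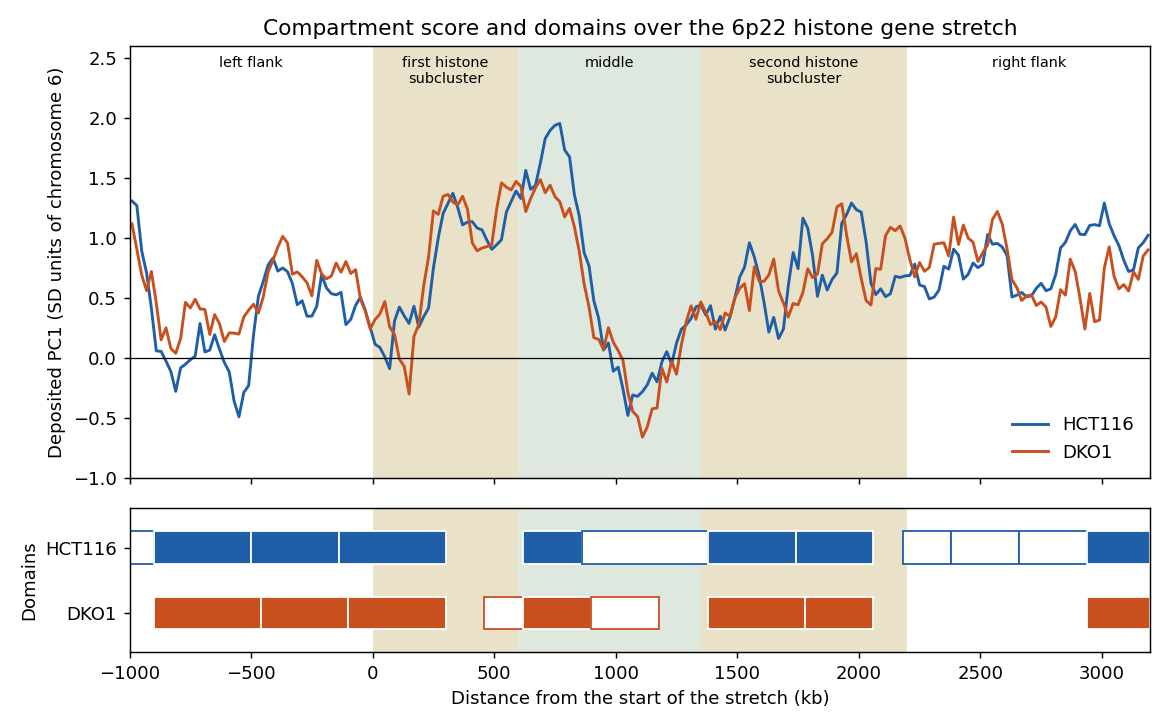
Upper panel: deposited PC1 (SD units of chromosome 6) per 20 kb bin against distance in kb from the start of the histone stretch, for HCT116 (blue) and DKO1 (orange), with the segments shaded. Lower panel: domains of each list, filled where the other list has a domain with at least 80% reciprocal overlap and open otherwise; the highest bin of each line lies in the middle, and the right flank holds 4 domains in HCT116 and 1 in DKO1.

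In the first histone subcluster PC1 averaged 0.77 (SD over 30 bins 0.47) for HCT116 and 0.83 (SD 0.54) for DKO1. Its scores were uneven. They went from -0.09 in its lowest bin to 1.39 in HCT116, and from -0.30 to 1.47 in DKO1, a range wider than that of 81.1% and 86.4% of 4374 autosomal windows of this length. The low bins were at its outer end and the highest bin, 26280001 to 26300000, was the last before the middle in both lines. By 100 kb blocks, the mean was 0.08 in HCT116 and 0.32 in DKO1 from 25700001 to 25800000, 0.35 and 0.01 in the next block, and 0.74 and 1.04 in the one after that. It was 1.23 and 1.30 from 26000001 to 26100000, 1.03 and 0.93 in the next block, and 1.17 and 1.40 in the last. The inner 300 kb were thus near or above 1 in both lines, and the outer 200 kb were near the border of the compartments.

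In the second histone subcluster PC1 averaged 0.66 (SD over 43 bins 0.31) for HCT116 and 0.69 (SD 0.28) for DKO1. All 43 bins were A in both lines, with values from 0.16 to 1.29 in HCT116 and from 0.23 to 1.28 in DKO1. Of 932 autosomal windows of this length with every bin A in HCT116, 636 (68.2%) also had every bin A in DKO1. The means of both subclusters ranked alike, at 73.8% and 77.7% of windows for the first and 70.8% and 73.6% for the second, HCT116 before DKO1.

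The middle held both the highest and the lowest scores of the stretch. PC1 averaged 0.61 for HCT116 and 0.43 for DKO1, with medians of 0.33 and 0.25, and its SD over 37 bins was 0.81 and 0.70, larger than in either subcluster. The highest bin was 1.95 in HCT116, at 26460001 to 26480000, and 1.49 in DKO1, at 26380001 to 26400000. For comparison, the highest score anywhere on chromosome 6 was 2.11 in HCT116 and 2.29 in DKO1. The lowest bins of the middle were -0.48 in HCT116 and -0.66 in DKO1. Its range of 2.43 in HCT116 was wider than that of 94.8% of 3542 autosomal windows of the same number of bins, and its range of 2.15 in DKO1 wider than that of 89.4%. The first 18 bins of the middle, up to 26660000, had a mean of 1.30 in HCT116 and 1.01 in DKO1, and all were A in both lines. The other 19 bins had means of -0.05 and -0.11, with 7 of them A in each line.

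A run of bins at PC1 of at least 1 crossed the border between the first subcluster and the middle in both lines. In HCT116 it went from 26240001 to 26560000 (320 kb), with a mean of 1.55. In DKO1 it went from 26200001 to 26540000 (340 kb), with a mean of 1.34, where HCT116 had 1.50. It was the longest such run of the stretch and its flanks in each line. Next to it, an interval of compartment B lay within the middle. It went from 26680001 to 26900000 (220 kb) in HCT116, with a mean of -0.22, and from 26720001 to 26960000 (240 kb) in DKO1, with a mean of -0.32. The middle was therefore not a low stretch between a pair of high ones: the score stayed high from the inner first subcluster into the middle, crossed 0, and was positive again before the second subcluster.

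The subclusters and the middle were compared directly. Over all 73 bins of both subclusters PC1 averaged 0.71 for HCT116 and 0.75 for DKO1. That was above the middle by 0.10 in HCT116 and by 0.31 in DKO1. The size of this difference depended on the setting: in HCT116 it was 0.05 with a 10 Mb running mean subtracted, 0.25 with each segment shortened by 100 kb at both ends and 0.35 with medians, and in DKO1 it went from 0.29 to 0.49 over the same settings. When the 1176 autosomal windows were divided at the same distances, the difference ranked above 60.3% of them in HCT116 and 74.7% in DKO1, so differences of this size were common. The sign depended on which bins of the middle were used. Against its first 18 bins the subclusters were lower, with differences of -0.60 in HCT116 and -0.26 in DKO1, and against the other 19 they were higher by 0.75 and 0.86. Each subcluster alone was above the whole middle, the first by 0.16 and 0.40 and the second by 0.05 and 0.25. The difference between subclusters and middle was larger in DKO1 than in HCT116 by 0.22, above 84.1% of the windows.

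Between the lines the mean score of the stretch was nearly the same. DKO1 minus HCT116 was -0.03 over the stretch, 0.07 in the first subcluster, -0.18 in the middle and 0.02 in the second subcluster. The flanks differed by 0.20 on the left and -0.09 on the right. The small differences of the subclusters had the other sign, -0.0169 and -0.0319, when each was shortened by 100 kb at both ends, and those of the stretch and the right flank did so after a 10 Mb running mean was subtracted (0.00613 and 0.0406). Across all autosomal bins the difference between the tracks had an SD of 0.51, with 95% of bins between -1.01 and 1.08. DKO1 was higher in 54 of the 110 bins, against 50.6% of all autosomal bins. It was higher in 20 of 30 bins of the first subcluster, 24 of 43 of the second and 10 of 37 of the middle. In the left flank it was higher in 39 of 50 bins and in the right flank in 23 of 50. The middle ranked above 31.6% of windows for this difference, so a lower score in DKO1 by this much was not rare.

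The lower score of the middle in DKO1 lay mostly at its peak. Over 16 consecutive bins from 26320001 to 26640000 (320 kb) HCT116 was higher, with a mean of 1.38 against 1.04 in DKO1. The block from 26400001 to 26500000 was at 1.87 in HCT116 and 1.33 in DKO1, a difference of -0.54. In the B interval that follows, 8 consecutive bins from 26760001 to 26920000 were also lower in DKO1, at -0.41 against -0.18. The 6 bins between these runs, from 26640001 to 26760000, were higher in DKO1, at 0.03 against -0.12.

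**Figure D2:**
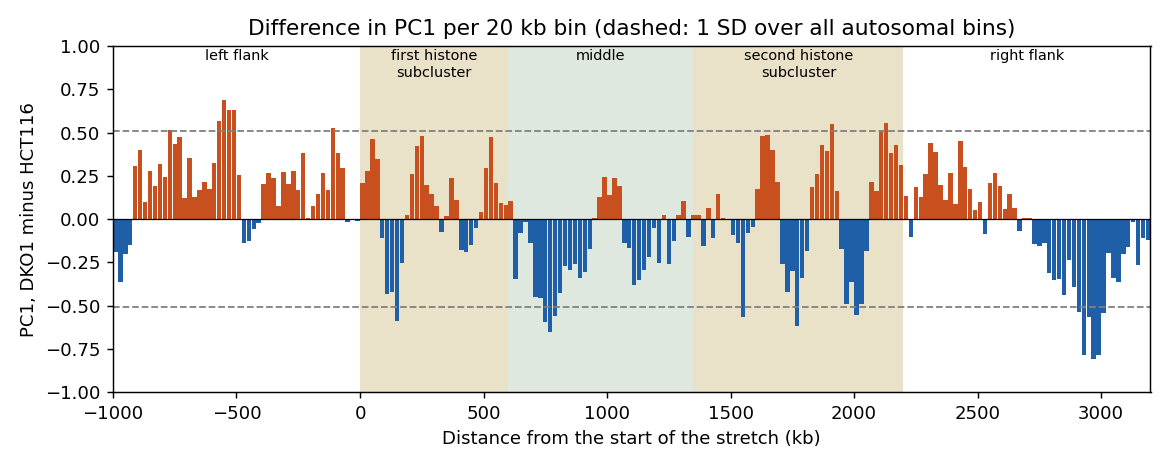
PC1 of DKO1 minus PC1 of HCT116 (SD units) per 20 kb bin against distance in kb from the start of the histone stretch; bars above 0 (orange) are higher in DKO1, bars below 0 (blue) higher in HCT116, and dashed lines mark 1 SD of the difference over all autosomal bins (0.51). Bars are below 0 over 320 kb at the peak of the middle and over 480 kb of the right flank, and above 0 over 440 kb of the left flank.

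In the second subcluster the lines differed back and forth around one mean. HCT116 was higher over runs of 100 kb from 27200001, of 120 kb from 27400001 (0.89 against 0.53) and of 120 kb from 27640001 (1.09 against 0.71). DKO1 was higher over 100 kb from 27300001 (0.63 against 0.28), over 120 kb from 27520001 (1.04 against 0.71) and over 160 kb from 27760001 (0.95 against 0.61). The Pearson r between the lines was 0.34 over these 43 bins, 0.86 over the 30 bins of the first subcluster and 0.96 over the 37 of the middle. It was lower still in the right flank, at 0.09. The SD over bins there was 0.21 in HCT116 and 0.25 in DKO1, the smallest of the segments in each line. Neighbouring bins are not independent and all bins come from the same pair of maps, so these are descriptions. The mean absolute difference between the lines was 0.28 per bin in the second subcluster, 0.23 in the first, 0.24 in the middle and 0.26 in the right flank.

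Over the whole stretch the mean absolute difference was 0.25, lower than in all but 30.4% of the autosomal windows. On chromosome 6 alone it stood lower. Only 5.48% of the 73 other windows of chromosome 6 had a smaller mean absolute difference, and their median was 0.53, against 0.33 for all autosomal windows. The flanks had similar mean absolute differences, 0.25 on the left and 0.26 on the right. The low value was therefore not particular to the stretch. The tracks of chromosome 6 correlated with an r of 0.76 over 8376 bins, and the difference between them had an SD of 0.70, above the 0.51 of all autosomes.

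**Figure D3:**
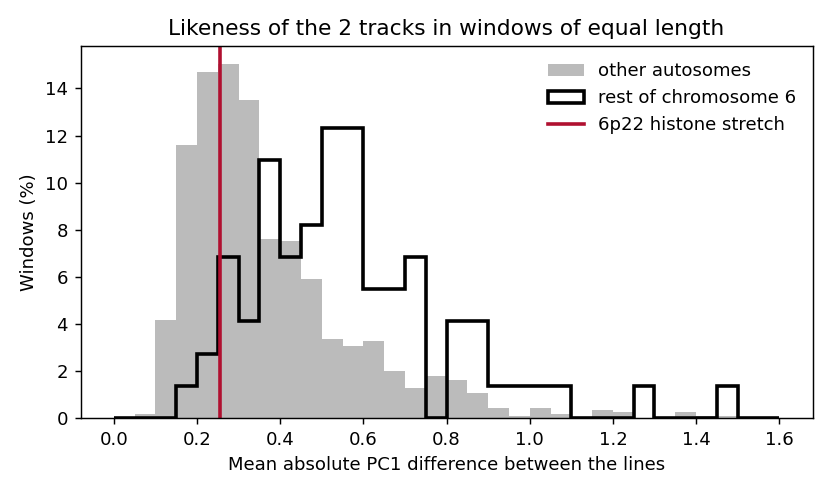
Share of windows (%) by mean absolute PC1 difference between HCT116 and DKO1 (SD units) for windows as long as the histone stretch, on other autosomes (grey) and on the rest of chromosome 6 (black outline), with the stretch as a red line. The stretch, at 0.25, lies near the low end of the windows of chromosome 6, whose median is 0.53, and below the median of 0.33 of all windows.

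Few bins of the stretch differed in sign between the maps. Of 110 bins, 5 (4.55%) went from A to B between HCT116 and DKO1, against 8.92% of autosomal bins, and 3 (2.73%) went from B to A, against 4.4%. Few bins of the stretch were B to begin with. Of its 97 A bins in HCT116, 5 (5.15%) were B in DKO1, against 16.6% of autosomal A bins. Of its 13 B bins, 3 (23.1%) were A in DKO1, against 9.5% of autosomal B bins. The lowest of the 13 was only -0.48 in HCT116, where scores on chromosome 6 went down to -2.23. All 8 switched bins lay in the first subcluster or the middle, and every one had an absolute score under 0.5 in both lines. The longest run, 3 bins from 25800001 to 25860000 (60 kb) in the outer part of the first subcluster, went from 0.35 in HCT116 to -0.13 in DKO1. Single bins at 26900001 and 26940001, at the far edge of the B interval of the middle, went from 0.05 to -0.20 and from 0.12 to -0.14. In the other direction, the bin at 25760001 went from -0.09 to 0.26. At the near edge of the B interval, 2 bins from 26680001 to 26720000 went from -0.10 to 0.09. The B interval of the middle thus began 40 kb later and ended 60 kb later in DKO1, counting from its longest run in each line.

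The left flank switched more than the stretch. It held 38 A bins of 50 in HCT116 and 50 of 50 in DKO1. All 12 of its B bins, 24% of the flank, thus went from B to A. Over the autosomes 9.5% of B bins and 4.4% of all bins did so. The lowest of the 12 was only -0.49 in HCT116, where scores on chromosome 6 went down to -2.23. These 12 bins formed a pair of runs of 120 kb. The run from 24840001 to 24960000 had a mean of -0.10 in HCT116 and 0.23 in DKO1, and the run from 25080001 to 25200000 had -0.25 and 0.25. Both lay in a longer interval of 440 kb, from 24780001 to 25220000, in which every bin was higher in DKO1 (-0.03 against 0.31). The right flank had 50 A bins of 50 in both lines. Within it, 24 consecutive bins from 28420001 to 28900000 were higher in HCT116, at 0.92 against 0.57, with the block from 28600001 to 28700000 at 1.07 and 0.38.

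The domain lists were then read over the same positions. They lie on a 40 kb grid and carry no score, and the HCT116 list is longer over the whole genome, with 4289 domains against 1823 in DKO1. On chromosome 6 the numbers were 224 and 84. Across the histone stretch the lists were alike in number: 6 domains of each list touched it. By midpoints, 5 HCT116 domains and 6 DKO1 domains lay in it. The median autosomal window of this length held 3 HCT116 domains and 1 DKO1 domain, and 96.7% of windows held fewer than 6 in DKO1. Of 372 windows with at least 5 domains in HCT116, 39 (10.5%) had at least 6 in DKO1, and 18 (4.84%) had at least as many in DKO1 as in HCT116.

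Domains covered 80% of the stretch in HCT116 and 77.3% in DKO1. The median over autosomal windows was 45.5% in HCT116 and 10.9% in DKO1, and the stretch ranked above 85.7% and 98.6% of them. On chromosome 6, all of the 73 other windows had a lower DKO1 coverage. Among windows with a positive mean PC1 in HCT116, its DKO1 coverage ranked above 97.46%. High DKO1 coverage was not particular to the histone subclusters. The left flank was covered to 90% in DKO1, above 98.2% of 2620 windows of its length. The middle was covered to 77.3%, above 94.7% of windows of its length. Coverage was lower in DKO1 by 23.6 points in the median window as long as the stretch and by 2.73 points in the stretch. That difference was above those of 82.4% of the windows, which include windows with no domain in either list. Whether depth or list length takes part in these values was not tested, since the files hold no depth.

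**Figure D4:**
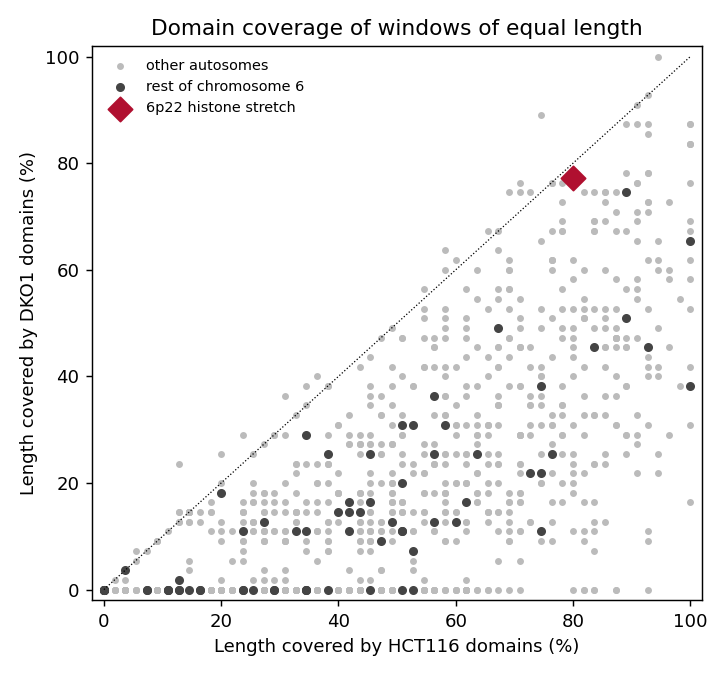
Length covered by DKO1 domains (%) against length covered by HCT116 domains (%) in autosomal windows as long as the histone stretch, with windows of other autosomes in light grey, other windows of chromosome 6 in dark grey and the stretch as a red diamond; the dotted line marks equal coverage. The stretch, at 80% and 77.3%, lies close to the dotted line and above all other windows of chromosome 6 in DKO1.

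Of the 6 domains in each list, 4 had a partner in the other list with 80% or more reciprocal overlap and are called matched. Over all autosomes 35.9% of HCT116 domains and 84% of DKO1 domains were matched. The first matched domain entered the first subcluster from the left flank, at 25.56 to 26 Mb in HCT116 and 25.6 to 26 Mb in DKO1, with a mean PC1 of 0.39 and 0.50 over the HCT116 limits. The next covered the peak of the middle, at 26.32 to 26.56 Mb in HCT116 and 26.32 to 26.6 Mb in DKO1. Over the HCT116 limits its mean was 1.63 in HCT116 and 1.28 in DKO1. The remaining pair lay in the second subcluster, at 27.08 to 27.44 and 27.44 to 27.76 Mb in HCT116 and at 27.08 to 27.48 and 27.48 to 27.76 Mb in DKO1. Over the HCT116 limits, the former had a mean of 0.49 in HCT116 and 0.50 in DKO1, and the latter 0.91 and 0.81.

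The unmatched domains lay in the first subcluster and the middle, apart from 1 at the right edge. DKO1 alone listed a domain of 160 kb at 26.16 to 26.32 Mb, the inner end of the first subcluster, where PC1 averaged 1.13 for HCT116 and 1.29 for DKO1. HCT116 had no domain from 26000001 to 26320000 (320 kb), although the score there was 1.16. The first subcluster was therefore covered to 50% in HCT116 and to 73.3% in DKO1. Only 134 of 4374 windows of this length (3.06%) had a higher coverage in DKO1, and the change of 23.3 points was above those of 99.4% of them. In the middle, HCT116 had a domain of 520 kb at 26.56 to 27.08 Mb with a mean PC1 of 0.09, and DKO1 had 1 of 280 kb within it, at 26.6 to 26.88 Mb, followed by 200 kb without a domain. The coverage of the middle was 97.3% in HCT116 and 77.3% in DKO1. At the right edge, HCT116 listed a domain at 27.88 to 28.08 Mb that DKO1 did not overlap. The second subcluster was covered to 85.9% and 80%.

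Of the 7 boundaries of the stretch in HCT116, 6 had a DKO1 boundary within 40 kb, against 45.2% of autosomal HCT116 boundaries. Of the 8 in DKO1, 6 had an HCT116 boundary within 40 kb, against 92.5% of autosomal DKO1 boundaries. Over all autosomes 34.4% of HCT116 boundaries and 71.7% of DKO1 boundaries had an identical position in the other list. In the stretch 4 of the 7 in HCT116 and 4 of the 8 in DKO1 did, at 26, 26.32, 27.08 and 27.76 Mb. The last-named is the end of the second domain of the second subcluster, and 27.08 Mb lies at the outer edge of the middle, next to the limit of 27.05 Mb that the rule sets. The boundaries without a partner were 27.88 Mb in HCT116, 120 kb from the nearest of DKO1, and 26.16 and 26.88 Mb in DKO1, 160 and 200 kb from the nearest of HCT116. With the flanks, 6 of 13 HCT116 boundaries were identical in DKO1 and 4 were 40 kb apart, and in all 4 the DKO1 boundary was the one at the higher coordinate. Over the autosomes such offsets went up in 326 cases and down in 325. The offsets here are only 4, each the smallest step of the 40 kb grid, and were counted after the values were seen. Their shared direction is a description only.

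The longest gap in the DKO1 list over the stretch and its flanks lay at the end of the second subcluster and beyond it. From 27760001 to 28640000 (880 kb) DKO1 listed no domain, and its mean PC1 there was 0.78, against 0.72 in HCT116, both above the means of the stretch. HCT116 listed 3 domains that lay wholly in this interval, at 27.88 to 28.08, 28.08 to 28.36 and 28.36 to 28.64 Mb. The right flank was covered to 100% in HCT116 and to 26.0% in DKO1, a change of -74.0 points. That change was above only 5.65% of 2620 windows of this length, whose median change was -24.0 points. Low DKO1 coverage was common, however: the 26.0% was above 69.4% of these windows, whose median was 0%. The 100% in HCT116 was above 91.1% of them. The domain at 28.64 to 29 Mb had the same limits in both lists. In the left flank coverage was 100% and 90%, and all 3 boundaries of each list had a partner within 40 kb.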

How the data were processed

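Tools named in the submitters' processing notes are HOMER 4.6 and HiC-Pro, with hg19 as the build. The caller of the domains, and the tool behind each file, is not given in the sources used here. The deposited PC1 is a score per 20 kb bin with, on each chromosome, a mean of 0 and an SD of 1. The deposited domain lists hold positions on a 40 kb grid. The labels of a line's 3 libraries point to 1 set of files, which was taken as pooled. A bin was assigned by its midpoint. Segments were ranked among non-overlapping autosomal windows of the same number of bins with values in at least 80% of them. Segment coverage used the stated limits, which differ by up to 10 kb from whole bins. Domains were matched at 80% reciprocal overlap and boundaries within 40 kb. Named were all segments, switched runs, domains and boundaries, and genes by family. Runs of consecutive differences of at least 5 bins, 100 kb blocks, runs at PC1 of at least 1, the parts of the middle, switched shares by starting compartment, boundary offsets and promoter motifs were added after the values were seen. The members and lists were chosen with earlier results of these data known. Alternatives covered centring, smoothing, limits, windows, overlap and tolerance. Functions were tested on the deposited tracks and domains with planted scores and known shifts, and on a small made-up set of domains. Python 3.11.15, numpy 2.4.6, pandas 2.3.3 and matplotlib 3.10.9 were used. Contact maps were not used here.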

Additional observations from a re-analysis of the deposited data

How the results depend on the processing

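With 1 track and 1 list per line, taken as pooled, there is no replicate error, and neighbouring bins are not replicates. The mean PC1 of the segments moved by less than the SD over bins in 60 of 60 alternatives. That is a wide margin in the middle, where the median was 0.33 in HCT116 and 0.25 in DKO1 against means of 0.61 and 0.43. Some alternatives could hardly move a mean. Keeping only bins wholly inside changed the second subcluster alone. The chromosome 6 medians subtracted were only -0.00096 in HCT116 and 0.0107 in DKO1. The subclusters minus the middle kept a positive sign against the whole middle, from 0.05 to 0.35 in HCT116 and from 0.25 to 0.49 in DKO1. The small differences between the lines did not keep their sign everywhere. With each segment shortened by 100 kb at both ends, DKO1 minus HCT116 was -0.0169 in the first subcluster and -0.0319 in the second. With a 10 Mb running mean subtracted it was 0.0406 in the right flank and 0.00613 over the stretch. The cause was not tested. Against the first 18 bins of the middle, a division added after seeing the data, the subclusters were at -0.60 in HCT116 and -0.26 in DKO1. The share of A bins in the first subcluster was 100% in HCT116 and 96.7% in DKO1 after smoothing over 5 bins. With bins kept only where the absolute PC1 reached 0.5 in both lines, it was 100% in the first subcluster, the middle and the whole stretch in both lines and in the left flank in HCT116, since switched and low bins are left out. Against windows of chromosome 6 only, the stretch ranked at 74.0% for the mean in DKO1, 49.3% for the difference, 5.48% for the mean absolute difference, and 54.8% and 37.0% for the range in HCT116 and DKO1. Its covered share and number of domains ranked at 91.8% and 76.7% in HCT116 and at 100% and 98.6% in DKO1. Against windows with a positive mean in HCT116, it ranked at 58.6% and 57.1% for the means, 52.2% for the difference and 76.2% for the range in HCT116. There the covered share and number ranked at 79.7% and 56.3% in HCT116 and at 97.46% and 93.8% in DKO1. By midpoint, 2 HCT116 domains were assigned to the left flank and 2 to the second subcluster. At 90% reciprocal overlap 2 of the 6 domains of each list in the stretch were matched. Over all autosomes 23.6% of HCT116 domains and 55.2% of DKO1 domains were matched at that setting. At a tolerance of 0 kb 1 of the 3 boundaries of each list was found in the left flank, against 34.4% of autosomal HCT116 and 71.7% of autosomal DKO1 boundaries. No paired analysis was possible because the labels of each line's replicates point to 1 set of files, taken as pooled. For the same reason no replicate could be left out.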
